A study of Homo sapiens with 6 samples.

Results

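Melanin synthesis and melanosome genes were followed in HMCB, a human melanoma cell line, after an siRNA against AHCYL1. The 10 genes were taken by symbol from the 26902 rows of the deposited table of TPM (a level per transcript length, scaled to the same total in every library): DCT, TYR, TYRP1, PMEL, MLANA, OCA2, SLC45A2, GPR143, MC1R and GPNMB. All 10 had a row, and 5 of them reached 1 TPM in at least 3 of the 6 libraries and were tested. Cells of both groups carried the labelled genotype Nras Q61K, an activating change of the RAS protein NRAS. The groups were AHCYL1 siRNA (siAHCYL1, 3 libraries) and control siRNA (siNC, 3 libraries), and RNA was taken 3 days after transfection. The series asks how AHCYL1 promotes proliferation of NRAS-mutant melanoma cells. Each group is a single cell line given 1 kind of siRNA treatment, and the replicates are called biological without separate cultures being named, so a p-value here reflects only how much these libraries scatter, part of which may be technical.

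Melanin is made inside melanosomes, organelles related to lysosomes that pigment cells load with dedicated cargo. Tyrosinase (TYR) starts the pathway by oxidising tyrosine, dopachrome tautomerase (DCT) converts the intermediate dopachrome, and TYRP1, the remaining member of the tyrosinase family, acts later in eumelanin synthesis and stabilises tyrosinase, as shown in mouse. PMEL forms the fibrils on which melanin is laid down. MITF, a transcription factor of melanocytes, binds a promoter element called the M-box in several of these genes, and the receptor MC1R raises cyclic AMP and through it MITF. Melanomas keep this programme to very different degrees.

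The promoters of the tyrosinase family are shown because its 3 members stood at 3 different positions in these libraries: DCT was lower after the AHCYL1 siRNA, TYRP1 was higher, and TYR was listed at 0 throughout. The windows run from 250 bases before to 50 bases after a RefSeq start on GRCh38.p14, 5′ to 3′ along the gene. For DCT, which has another start upstream, the window is chr13:94479633-94479932 on the minus strand. The windows of TYRP1 and TYR are chr9:12693135-12693434 and chr11:89177625-89177924, both on the plus strand. Capitals mark CATGTG on either strand, and all 7 bases where the match extends to TCATGTG, the M-box.
DCT: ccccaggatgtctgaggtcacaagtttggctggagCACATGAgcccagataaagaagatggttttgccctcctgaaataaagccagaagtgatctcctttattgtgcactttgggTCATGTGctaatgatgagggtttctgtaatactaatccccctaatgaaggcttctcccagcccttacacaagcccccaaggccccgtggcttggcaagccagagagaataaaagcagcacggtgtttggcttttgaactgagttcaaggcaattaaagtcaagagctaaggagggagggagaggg
TYRP1: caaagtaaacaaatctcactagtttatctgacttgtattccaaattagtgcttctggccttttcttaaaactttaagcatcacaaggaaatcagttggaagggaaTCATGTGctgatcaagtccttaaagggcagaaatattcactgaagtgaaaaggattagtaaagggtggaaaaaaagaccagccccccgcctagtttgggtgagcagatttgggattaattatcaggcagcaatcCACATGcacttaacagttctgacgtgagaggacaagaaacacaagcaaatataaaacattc
TYR: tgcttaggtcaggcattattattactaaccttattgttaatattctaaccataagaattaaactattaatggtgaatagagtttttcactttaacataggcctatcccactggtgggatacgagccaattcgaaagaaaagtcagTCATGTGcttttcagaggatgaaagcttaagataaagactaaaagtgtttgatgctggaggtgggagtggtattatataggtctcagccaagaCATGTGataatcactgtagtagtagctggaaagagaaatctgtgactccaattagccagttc

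Each of these windows held an M-box on the gene's own strand, starting 135 bases before the start of DCT, 145 before that of TYRP1 and 105 before that of TYR. The DCT window held another on the opposite strand, 215 bases before the start. Of 35116 promoters of this length, 2.92% held TCATGTG on either strand and 11.1% held CATGTG, which lies within it. Among the members, 8 genes had a window, 5 of them with TCATGTG (DCT, GPNMB, GPR143, TYR and TYRP1) and 7 with CATGTG. DCT was counted by the window shown; the window of its upstream start, chr13:94549357-94549656, held neither. The palindromic E-box CACGTG was in 7.26% of all promoters and in 0 of the 8 member genes, and TGACG, the core site of the cAMP-responsive factor CREB, was in 24.6% and in 2, MLANA and TYRP1. PMEL and SLC45A2 had no window. M-boxes thus stood in promoters of genes that were lower, higher and at 0, and a match is a description of letters, not of binding.

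The siRNA target itself was low in every treated library. AHCYL1 had 13.45, 11.13 and 10.97 TPM in the siAHCYL1 libraries, against 150.02, 134.05 and 131.09 TPM in the siNC libraries (log2 fold change -3.44, SE 0.10, limma adjusted p = 5.64e-08). TPM keep no sequencing depth, so depth is unknown, and the number of genes at 1 TPM or more was 13035 in the lowest library and 13189 in the highest. Of 13266 genes tested, 6844 changed (51.6%, adjusted p under 0.05), 4030 of them higher (30.4%) and 2814 lower (21.2%), and the groups did not overlap in TPM in 59.2% of the genes tested. The median log2 fold change of all genes tested was 0.06. Log2 fold changes were computed from log2(TPM + 1), siAHCYL1 over siNC, a scale that makes the change of low genes look smaller.

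All 5 members that could be tested passed the test, 3 of them higher (TYRP1, PMEL and OCA2) and 2 lower (DCT and MC1R), against the background of 51.6% of all genes. DCT passed the filter on low values only through the siNC libraries, and PMEL through all 3 siAHCYL1 libraries and 1 siNC library, so the count of tested members is no measure of how often pigment genes changed. The count was 3 without any single siAHCYL1 library, 2 without siNC replicate 2 and 4 without replicate 1 of both groups, a setting added after seeing the data. Of the other 5 members, TYR and GPR143 were listed at 0 in all 6 libraries, and MLANA, GPNMB and SLC45A2 stayed under 1 TPM in each. In the table of a bulk culture, fewer cells making a transcript and less transcript per cell cannot be told apart.

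**Figure D1:**
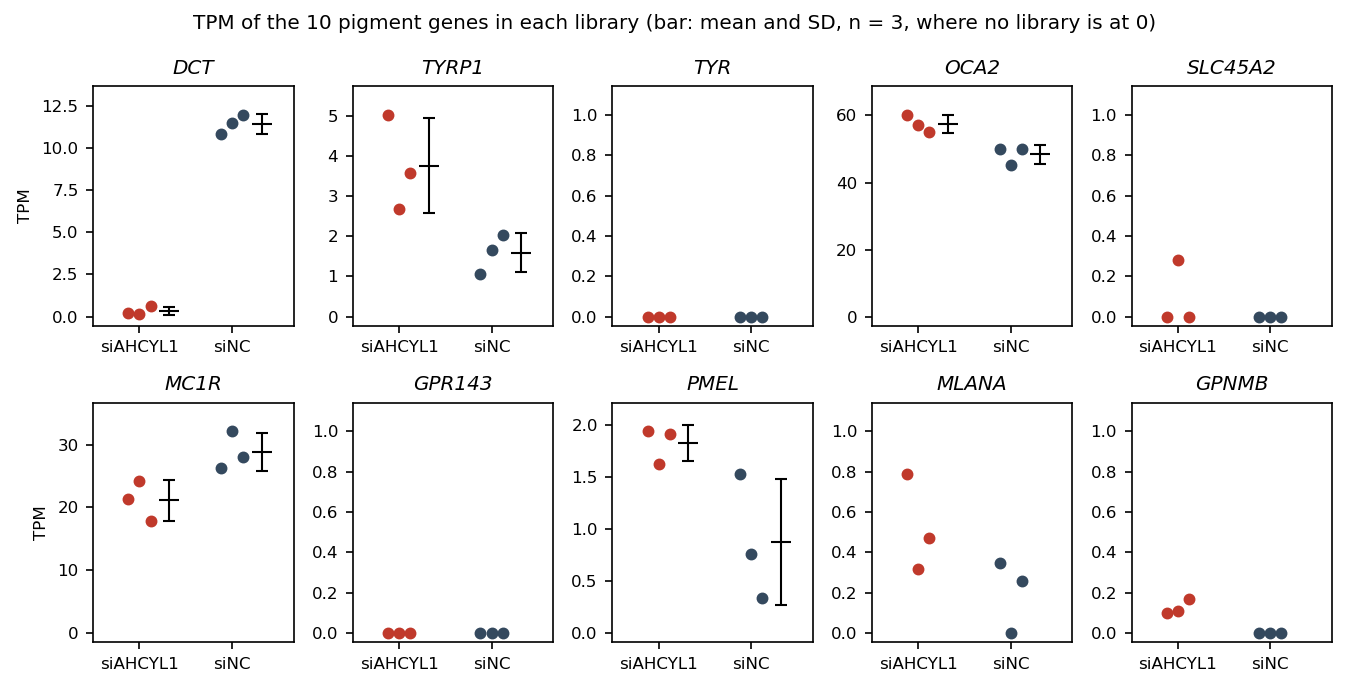
TPM of each of the 10 members in the 3 siAHCYL1 and 3 siNC libraries, each panel with its own axis; points are libraries, and the bar gives mean and SD where no library is at 0. DCT stands at 0.62 TPM or less in the siAHCYL1 libraries and at 10.79 TPM or more in the siNC libraries, while OCA2, TYRP1 and PMEL lie higher and MC1R lower in the siAHCYL1 libraries.

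DCT, the tautomerase, showed the second largest fall of all genes tested on the scale of log2(TPM + 1), after AHCYL1 itself. It had 0.24, 0.15 and 0.62 TPM in the siAHCYL1 libraries, against 10.79, 11.49 and 11.95 TPM in the siNC libraries. Every treated library was far under every control library, and the controls lay close together. The mean was 0.337 ± 0.25 TPM in siAHCYL1 and 11.4 ± 0.58 TPM in siNC (SD, n = 3 each), a mean 33.9-fold lower. This ratio divides by values under 1 TPM at unknown depth, so its size is uncertain. On the log2 scale the change was -3.23 (SE 0.17, adjusted p = 1.14e-06 by limma), and 0.0829% of all genes tested had a larger change in either direction. With a pseudocount of 0.1 in place of 1 the change was -4.87, a larger fall than the -3.54 of AHCYL1. DCT passed in each of 14 other settings, at adjusted p from 4.97e-07 to 3.59e-05 by limma.

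TYRP1 moved the other way. It had 5.02, 2.69 and 3.57 TPM in the siAHCYL1 libraries, against 1.07, 1.66 and 2.03 TPM in the siNC libraries, where all values were low and the groups did not overlap. The mean was 3.76 ± 1.18 TPM in siAHCYL1 and 1.59 ± 0.48 TPM in siNC (SD, n = 3 each), 2.37-fold higher, with a log2 fold change of 0.87 (SE 0.22, adjusted p = 0.00897 by limma). The highest treated library and the lowest control library were both replicate 1, and without replicate 1 of both groups the log2 fold change was 0.53 and the test was not passed (adjusted p = 0.0564, against a range from 0.0069 to 0.0564 over 13 settings). LURAP1L-AS1, an antisense gene with exons overlapping TYRP1 in GENCODE v29, was listed at 0 in the siAHCYL1 libraries and at 0, 0.4 and 1.14 TPM in the siNC libraries. These libraries do not mark strand, so reads from the overlapping exons of the pair cannot be told apart by strand. The length of that overlap was not examined.

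The order of DCT and TYRP1 turned round between the groups. The ratio of DCT to TYRP1 TPM was 0.0478, 0.0558 and 0.174 in the siAHCYL1 libraries, against 10.1, 6.92 and 5.89 in the siNC libraries. TYRP1 was thus the more abundant of the pair in all treated libraries and the less abundant in all control libraries. TYR, the enzyme that starts melanin synthesis, was listed at 0 in all 6 libraries. The summed TPM of the 3 family members was 4.10 ± 1.21 in siAHCYL1 and 13.0 ± 1.07 in siNC (SD, n = 3 each), with an exact two-sided permutation p of 0.1, the smallest that 3 libraries against 3 allow.

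OCA2, a melanosomal membrane protein needed for chloride conductance and a raised melanosome pH, was the most abundant of the 10 genes and slightly higher after the AHCYL1 siRNA. It had 60.17, 57.02 and 55.06 TPM in the siAHCYL1 libraries, against 50.01, 45.09 and 50.02 TPM in the siNC libraries, without overlap. The mean was 57.4 ± 2.58 TPM in siAHCYL1 and 48.4 ± 2.84 TPM in siNC (SD, n = 3 each), 1.19-fold higher (log2 fold change 0.24, SE 0.075, limma adjusted p = 0.0223), and 59.1% of all genes tested had a larger change. The call ended under quantile normalization (log2 fold change 0.14, adjusted p = 0.111) and without siAHCYL1 replicate 1 (adjusted p = 0.0511), siAHCYL1 replicate 2 (0.0662) or siNC replicate 2 (0.0999), in a range from 0.0097 to 0.111 over 14 settings by limma. SLC45A2, a melanosomal transporter that also raises pH, was listed at 0 in 5 libraries and had 0.28 TPM in siAHCYL1 replicate 2. The mean of OCA2 over the 6 libraries lay above that of 72.5% of the genes tested.

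MC1R, the melanocortin receptor, was lower after the AHCYL1 siRNA. It had 21.33, 24.27 and 17.83 TPM in the siAHCYL1 libraries, against 26.33, 32.11 and 27.96 TPM in the siNC libraries, and the groups did not overlap. The mean was 21.1 ± 3.22 TPM in siAHCYL1 and 28.8 ± 2.98 TPM in siNC (SD, n = 3 each), 73.4% of the control level (log2 fold change -0.43, SE 0.12, limma adjusted p = 0.0152). The call ended without siAHCYL1 replicate 3 (adjusted p = 0.0518) or siNC replicate 2 (0.0689), in a range from 0.0034 to 0.0689 over 14 settings by limma. The ratio of OCA2 to MC1R TPM was 2.82, 2.35 and 3.09 in the siAHCYL1 libraries, against 1.90, 1.40 and 1.79 in the siNC libraries. MC1R shares exons with neighbouring genes in GENCODE v29, of which only TCF25 had a row, so the others could not be examined. TCF25 had 103 ± 4.57 TPM in siAHCYL1 and 108 ± 4.38 TPM in siNC (SD, n = 3 each). The next gene downstream, the tubulin gene TUBB3, had 528 ± 6.76 TPM in siAHCYL1 and 548 ± 15.5 TPM in siNC (SD, n = 3 each). Neither passed the test (adjusted p = 0.436 for TCF25 and 0.425 for TUBB3 by limma). GPR143, a receptor that sits on melanosomes, was listed at 0 in all 6 libraries.

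The structural proteins of the melanosome were near the lower limit of the table. PMEL, the fibril protein, had 1.94, 1.63 and 1.91 TPM in the siAHCYL1 libraries, against 1.53, 0.76 and 0.34 TPM in the siNC libraries. The treated libraries lay together, and the highest control library came close to them. The mean was 1.83 ± 0.17 TPM in siAHCYL1 and 0.877 ± 0.60 TPM in siNC (SD, n = 3 each), and PMEL just passed the test (log2 fold change 0.64, SE 0.24, limma adjusted p = 0.0484). It did not pass in 9 of 13 other settings, among them without siAHCYL1 replicate 1 (adjusted p = 0.111), 2 (0.0821) or 3 (0.114) and without siNC replicate 2 (0.113) or 3 (log2 fold change 0.42, adjusted p = 0.161), in a range from 0.0102 to 0.161 by limma. With a pseudocount of 0.1 the log2 fold change was 1.17 (adjusted p = 0.0627). In GENCODE v29 PMEL overlaps exons of CDK2, a cell cycle kinase gene on the opposite strand. CDK2 was itself higher (92.3 ± 4.36 TPM in siAHCYL1 and 80.4 ± 1.31 TPM in siNC, SD, n = 3 each, log2 fold change 0.20, adjusted p = 0.0294 by limma). Reads from the overlapping exons cannot be told apart by strand in these libraries, and the length of the overlap was not examined.

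MLANA, a melanosome protein that binds PMEL and is a standard melanoma marker, had 0.79, 0.32 and 0.47 TPM in the siAHCYL1 libraries, against 0.35, 0 and 0.26 TPM in the siNC libraries, which overlapped. It lies inside KIAA2026, a gene on the opposite strand without shared exons, which rose (21.1 ± 3.11 TPM in siAHCYL1 and 9.65 ± 0.27 TPM in siNC, SD, n = 3 each, log2 fold change 1.04, adjusted p = 8.36e-05 by limma). Whether reads from KIAA2026 introns were counted for MLANA was not tested. GPNMB, a glycoprotein related to PMEL, had 0.10, 0.11 and 0.17 TPM in the siAHCYL1 libraries and was listed at 0 in all 3 siNC libraries. With no filter on low values, GPNMB and MLANA did not pass (adjusted p = 0.0614 and 0.128 by limma).

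Together the 10 genes summed to 89.59, 86.47 and 79.63 TPM in the siAHCYL1 libraries, against 90.08, 91.11 and 92.56 TPM in the siNC libraries. The sums differed little, with the lowest control library just above the highest treated one (exact two-sided permutation p = 0.1). Their make-up differed more than their total. OCA2 and MC1R together held 92.2% ± 1.62 of the sum in siAHCYL1 and 84.6% ± 0.28 in siNC (SD, n = 3 each). Their own shares moved in opposite directions. OCA2 held 67.4% ± 1.6 in siAHCYL1 and 53.0% ± 3.1 in siNC, and MC1R held 24.8% ± 3.0 in siAHCYL1 and 31.6% ± 3.2 in siNC (SD, n = 3 each). Shares of a total depend on each other. DCT held 0.407% ± 0.33 in siAHCYL1 and 12.5% ± 0.47 in siNC, and TYRP1 held 4.40% ± 1.25 in siAHCYL1 and 1.73% ± 0.51 in siNC (SD, n = 3 each).

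**Figure D2:**
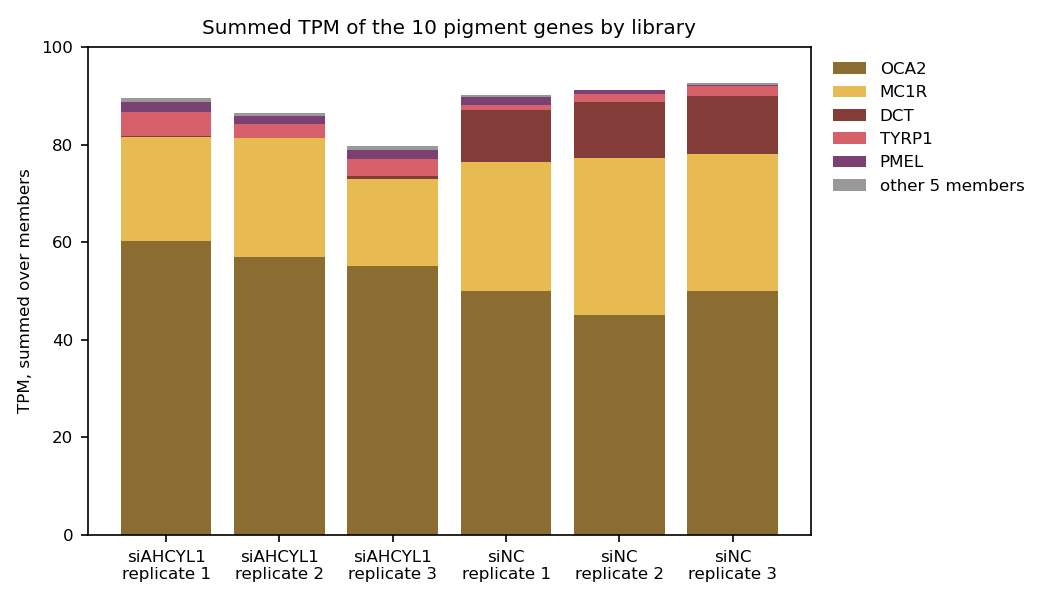
TPM of the 10 members stacked for each library, siAHCYL1 on the left and siNC on the right. OCA2 and MC1R make up most of every bar, and the DCT segment, at most 0.62 TPM in the siAHCYL1 bars, is between 10.79 and 11.95 TPM in the siNC bars.

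The order of mean levels in siAHCYL1 was OCA2, MC1R, TYRP1, PMEL, MLANA, DCT, GPNMB and SLC45A2, with TYR and GPR143 at 0. In siNC it was OCA2, MC1R, DCT, TYRP1, PMEL and MLANA, with the other 4 listed at 0. DCT thus stood in the sixth place after the AHCYL1 siRNA and in the third in the controls. In siAHCYL1 the libraries of MLANA and DCT overlapped, as did those of DCT and GPNMB and of GPNMB and SLC45A2. In siNC those of TYRP1 and PMEL and of PMEL and MLANA overlapped. Within single libraries, DCT lay above GPNMB in each siAHCYL1 library, and PMEL above MLANA in each siNC library. The order of the other overlapping pairs differed between libraries. Most of these values are low, at unknown depth.

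The genes with the most similar levels over the 6 libraries were found by the Pearson correlation of log2(TPM + 1) among all genes tested, a description that the group difference and the shared libraries dominate. For DCT these were ABCB6 (r = 0.9998), SCARF2 (0.9994) and TRIM16L (0.9991), with log2 fold changes of -1.09, -0.52 and -1.81. ABCB6, an ABC transporter, had 36.46, 35.29 and 39.89 TPM in the siAHCYL1 libraries, against 77.56, 80.91 and 81.41 TPM in the siNC libraries. For TYRP1 they were PTPN4, ST7L and LINC01198 (r from 0.992 to 0.995), for OCA2 L3HYPDH, CMTR2 and PDE4A (0.993 to 0.995), for PMEL ASZ1, INVS and TBC1D9 (0.991 to 0.996), and for MC1R C6orf223, KCNG3 and TBXA2R (0.989 to 0.993). No member was among the 3 genes most like another member. Only 5 of the 13266 genes tested were members, 3 of them higher and 2 lower, so lists this short could hardly hold one. Whether the members moved together was thus not tested by these lists.

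The lineage regulators SOX10 and MITF did not pass the test. SOX10, the transcription factor of neural crest and melanocyte fate, had 1009 ± 16.9 TPM in siAHCYL1 and 1037 ± 12.4 TPM in siNC (SD, n = 3 each, log2 fold change -0.04, SE 0.051, limma adjusted p = 0.548). MITF had 11.21, 9.57 and 8.38 TPM in the siAHCYL1 libraries, against 12.67, 10.04 and 10.26 TPM in the siNC libraries, with overlap (log2 fold change -0.16, SE 0.14, adjusted p = 0.342 by limma). The gene row sums all MITF isoforms, so the melanocyte isoform cannot be told apart from the others. Neither passed in any of 14 other settings. HMCB libraries thus had SOX10 at a level above 99.2% of the genes tested, while TYR, GPR143 and the melanosome transport adaptor MLPH were listed at 0 in all 6.

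Other genes of pigment cells were taken from lists drawn up by role from textbook knowledge, but with earlier results of these data known. The shares below are thus a description of these lists. Of 19 transcription factors and cofactors, 17 could be tested, 4 rose and 2 fell, 35.3% of those tested against 51.6% of all genes tested (median log2 fold change -0.04, against 0.06 over all genes tested). The rises were led by IRF4, which acts with MITF on the TYR gene and had 79.3 ± 6.10 TPM in siAHCYL1 and 45.3 ± 3.57 TPM in siNC (SD, n = 3 each, log2 fold change 0.79, adjusted p = 6.75e-05 by limma). TFEB, a regulator of lysosomal genes related to MITF, rose (0.63), as did SOX5 (0.65), a SOX family factor. PAX3, which activates MITF, fell to 16.9 ± 1.15 TPM in siAHCYL1, against 23.3 ± 2.14 TPM in siNC (SD, n = 3 each, log2 fold change -0.44, adjusted p = 0.00512 by limma).

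Of 42 genes of melanosome biogenesis, cargo sorting and transport, 40 could be tested, and 14 rose and 7 fell, 52.5% of those tested against the background of 51.6% (median log2 fold change 0.13). BACE2, the protease that cleaves PMEL into its fibril-forming fragment, rose to 160 ± 5.08 TPM in siAHCYL1, against 89.5 ± 1.50 TPM in siNC (SD, n = 3 each, log2 fold change 0.83, adjusted p = 6.42e-06 by limma). STX12, the syntaxin-13 gene of recycling endosomes, rose to 48.3 ± 5.58 TPM in siAHCYL1, against 24.5 ± 2.30 TPM in siNC (0.95). CD63, a tetraspanin that sorts PMEL, rose (0.39). HPS6, a BLOC-2 subunit of the Hermansky-Pudlak group, fell to 21.6 ± 1.60 TPM in siAHCYL1, against 39.5 ± 1.63 TPM in siNC (SD, n = 3 each, -0.84). The genes of this list thus changed about as often as all genes tested, with moves in both directions. PMEL itself stayed under 2 TPM.

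Of 16 melanosome channels, carriers and redox proteins, 15 could be tested, 3 rose and 7 fell, 66.7% of those tested against 51.6% of all genes tested (median log2 fold change 0.00). Over all genes 30.4% were higher and 21.2% lower. SLC7A11, the cystine carrier that feeds pheomelanin synthesis in mouse, fell most, by 2.77 on the log2 scale. ATP7A, the copper pump that loads tyrosinase, fell to 20.3 ± 2.88 TPM in siAHCYL1, against 38.8 ± 4.23 TPM in siNC (SD, n = 3 each, log2 fold change -0.90, adjusted p = 0.00022 by limma). MCOLN1, a lysosomal cation channel, fell (-0.74), and TPCN1, another endolysosomal cation channel, rose (0.79). SLC24A5, the cation exchanger of melanosomes, was at 0.1 TPM in siNC replicate 3 and listed at 0 in the other 5 libraries.

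Of 27 genes of melanocortin, cyclic AMP and growth factor input, 21 could be tested, 7 rose and 4 fell (52.4% of those tested, near the 51.6% of all genes tested, median log2 fold change 0.10). The ligand gene POMC, the accessory protein gene MRAP, the endothelin gene EDN3 and the receptor gene KIT were listed at 0 in all 6 libraries, and the MC1R antagonist gene ASIP in 5 of 6. PRKAR1A, a regulatory subunit of protein kinase A, rose to 1376 ± 45.1 TPM in siAHCYL1, against 830 ± 40.1 TPM in siNC (SD, n = 3 each, log2 fold change 0.73, adjusted p = 1.39e-05 by limma). CRTC1, a coactivator of CREB, rose (0.90), as did the adenylyl cyclase gene ADCY9 (0.77). SIK1, a kinase that holds CRTC proteins in check, fell (-0.51). MRAP2, an accessory protein of melanocortin receptors, fell to 0.65 ± 0.55 TPM in siAHCYL1, against 2.18 ± 0.53 TPM in siNC (SD, n = 3 each, -0.99, adjusted p = 0.00946 by limma), a call that ended without replicate 1 of both groups (-0.69, adjusted p = 0.0742, in a range from 0.00276 to 0.0742).

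Of 26 other genes known as MITF targets, 25 were in the table and 20 could be tested, 8 rose and 6 fell (70.0% of those tested against 51.6% of all genes tested, median log2 fold change 0.10). ASAH1, acid ceramidase, fell to 411 ± 51.6 TPM in siAHCYL1, against 853 ± 51.8 TPM in siNC (SD, n = 3 each, log2 fold change -1.06, adjusted p = 1.74e-05 by limma). ACP5, an acid phosphatase, fell (-1.11) from a low level, with 0.89, 1.37 and 0.74 TPM in the siAHCYL1 libraries, against 3.14, 2.67 and 4.16 TPM in the siNC libraries. GYG2, a glycogenin gene, fell (-0.64), and TBX2, a T-box repressor, rose (0.80). TRPM1 was not analysed here.

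**Figure D3:**
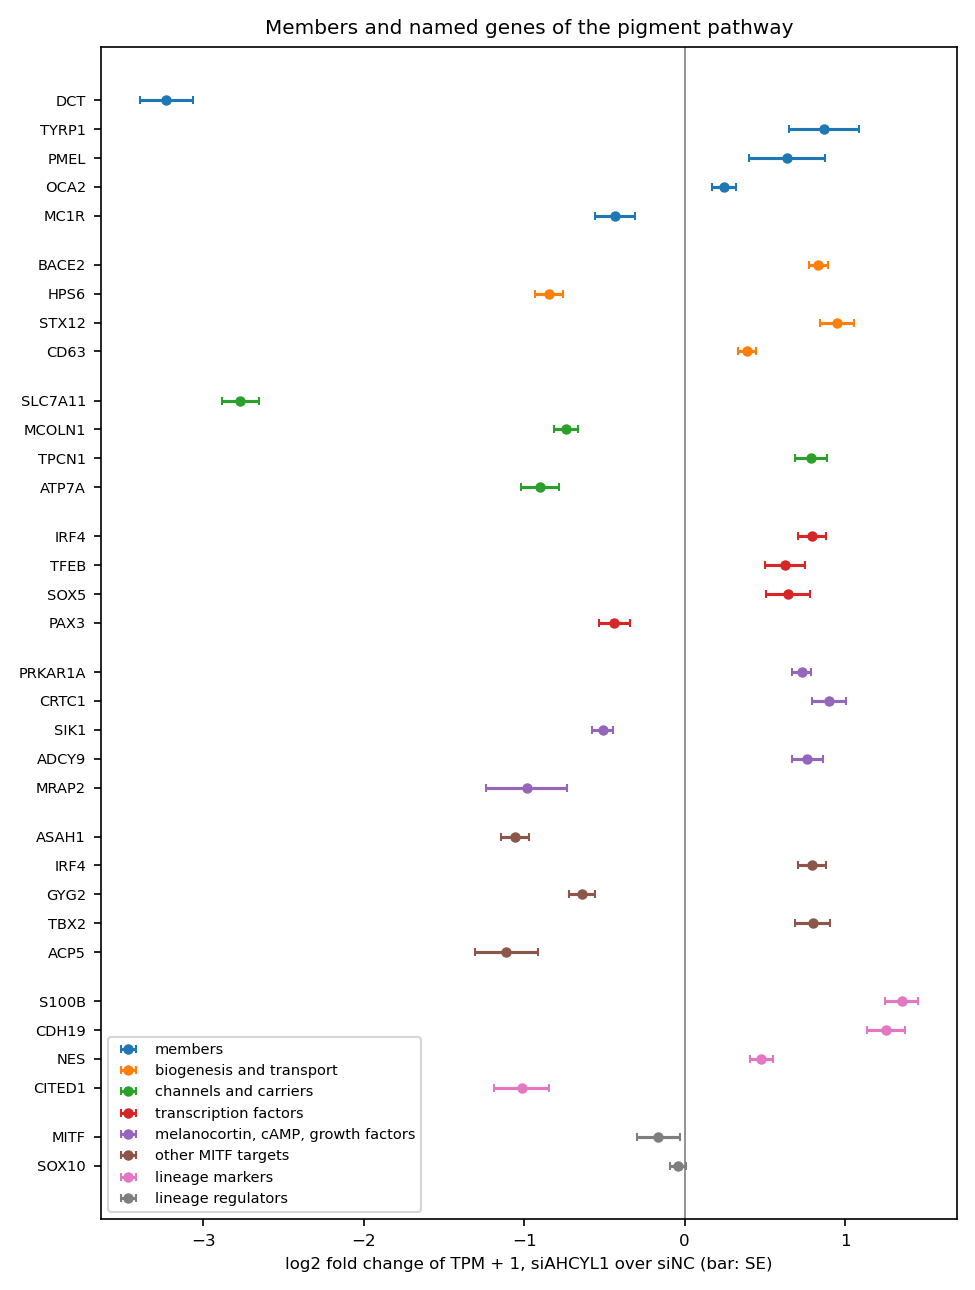
Log2 fold change of TPM + 1, siAHCYL1 over siNC, with its SE, for the 5 members tested and for the named genes of each list; IRF4 is in 2 lists and appears under both. DCT lies at -3.23, farther from 0 than any other gene drawn, and each of the lists other than the pair of lineage regulators has genes on both sides of 0.

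**Figure D4:**
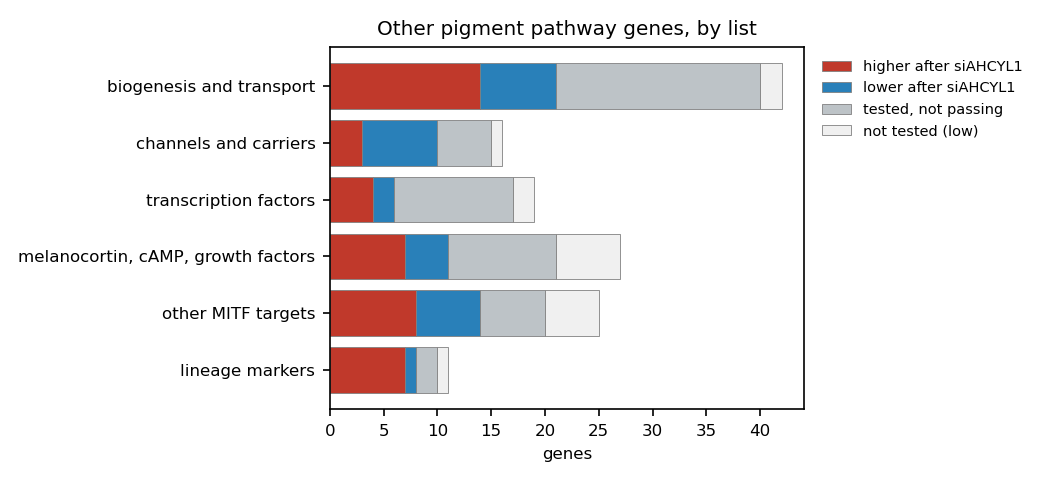
Number of genes in each list that were higher or lower after the AHCYL1 siRNA, tested without passing, or too low to test. Rises outnumber falls in 5 of the 6 lists, and falls outnumber rises among channels and carriers, with 7 against 3; over all genes tested rises outnumber falls too, with 30.4% higher and 21.2% lower.

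Most lineage markers outside the 10 genes that changed were higher after the AHCYL1 siRNA. Of 12 markers, 11 were in the table and 10 could be tested, 7 rose and 1 fell (80.0% of those tested against 51.6% of all genes tested, median log2 fold change 0.51 against 0.06). S100B, a calcium-binding marker of the neural crest lineage, rose to 29.0 ± 3.11 TPM in siAHCYL1, against 10.7 ± 0.58 TPM in siNC (SD, n = 3 each, log2 fold change 1.35, SE 0.10, adjusted p = 9.74e-06 by limma). CDH19, a cadherin of glial and melanoma cells, rose to 109 ± 15.2 TPM in siAHCYL1, against 45.2 ± 6.24 TPM in siNC (SD, n = 3 each, 1.25), and NES, nestin, rose (0.48). The marker that fell was CITED1, a transcriptional co-regulator, with 5.93, 4.37 and 6.25 TPM in the siAHCYL1 libraries, against 11.31, 15.18 and 10.18 TPM in the siNC libraries (log2 fold change -1.01, SE 0.17, adjusted p = 0.000984 by limma). The groups did not overlap.

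Markers of other cell types were mostly at or near 0. Of 9 macrophage and other immune markers, 5 were listed at 0 in all libraries (CSF1R, CD163, AIF1, CD3E and MS4A1), and the list summed to between 8.01 and 11.85 TPM in siAHCYL1 and between 4.12 and 4.97 TPM in siNC, mostly PTPRC, which rose (log2 fold change 1.09). Of 9 fibroblast markers, PDGFRA, FAP and THY1 were listed at 0. The fibroblast list summed to between 26.75 and 32.87 TPM in siAHCYL1 and between 15.54 and 18.44 TPM in siNC, mostly LUM, which rose (1.00). COL1A1 was lower (-1.09), with 0.68, 0.21 and 0.59 TPM in the siAHCYL1 libraries, against 1.64, 2.4 and 2.5 TPM in the siNC libraries. It passed the filter on low values only through the siNC libraries. Of 8 keratinocyte and epithelial markers, KRT5, CDH1 and KRT1 were listed at 0. The epithelial list summed to between 32.69 and 39.83 TPM in siAHCYL1 and between 28.96 and 41.31 TPM in siNC, with KRT18 lower (-0.27). KRT8 was higher (0.90) at a low level, with 2.51, 1.84 and 2.89 TPM in the siAHCYL1 libraries, against 0.47, 1.54 and 0.6 TPM in the siNC libraries. Of 5 endothelial markers VWF was listed at 0, and the list summed to between 6.29 and 7.19 TPM in siAHCYL1 and between 8.81 and 11.15 TPM in siNC, mostly KDR, which was lower (-0.45). The call of KRT8 ended in 1 of 13 other settings (adjusted p up to 0.0707 by limma), that of KRT18 in 6 of 14 (up to 0.169) and that of KDR in 2 of 14 (up to 0.0608). The part of these markers in the changes of the pigment genes was not tested.

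**Figure D5:**
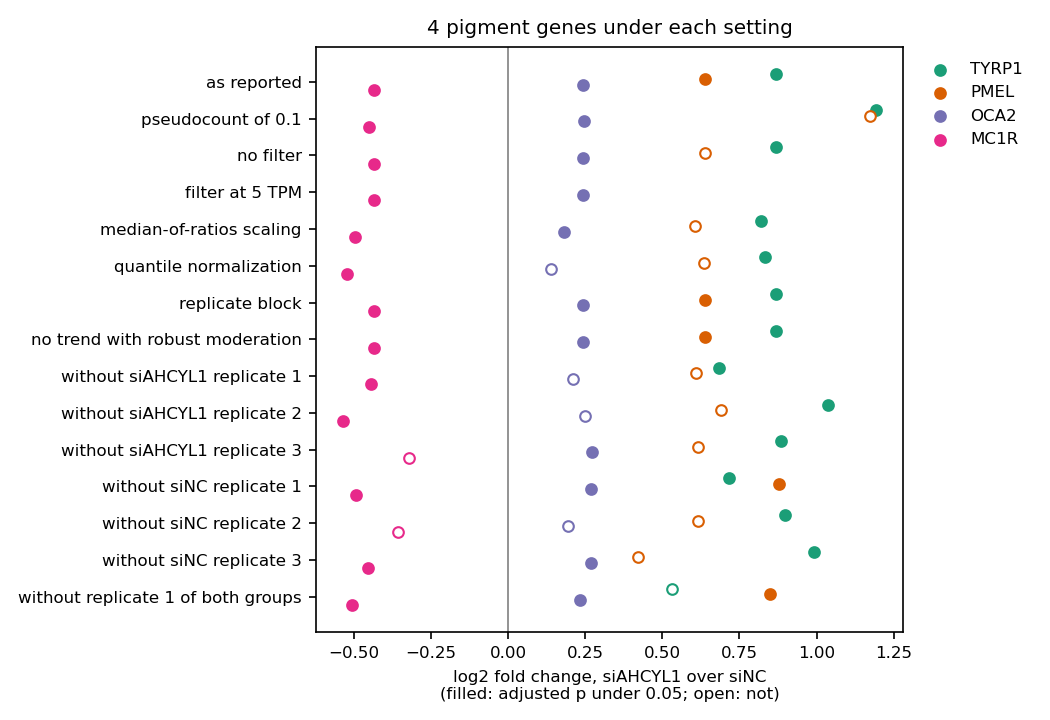
Log2 fold change of TYRP1, PMEL, OCA2 and MC1R, siAHCYL1 over siNC, as reported and under each other setting; filled points pass at an adjusted p under 0.05, open points do not, and a gene has no point where a filter removed it. Each gene keeps its side of 0 in every setting drawn, while PMEL is open in 9 and OCA2 in 4 of them.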

How the data were processed

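The authors deposited 1 table of TPM per gene symbol, made with STAR and RSEM on GRCh38, per the submitters' processing notes; for versions, annotation and filters the sources used here have no entry. Libraries were non-directional, per the labels' protocols. The nc columns were read as siNC and the si columns as siAHCYL1, the only other group. Each column summed to between 999999.43 and 1000000.21 TPM, so depth is unknown and no counting interval was computed.

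The test used was that of limma 3.58.1 (R 4.3.3) on log2(TPM + 1), with moderated variances that follow an intensity trend and group as the only term. It was two-sided, with Benjamini-Hochberg adjustment over the 13266 genes that reached 1 TPM in 3 or more of 6 libraries. The procedure was run on simulated data for its recovery of changes added to genes well above the filter. That run did not cover genes as low as TYRP1 and PMEL, changes as small as that of OCA2, or false calls. Exact permutation tests were two-sided. With libraries left out, the filter asked for as many libraries as the smaller group held. The members and lists were chosen with earlier results of these data known, and some genes of the marker lists are not reported here. Named were all members, MITF, SOX10, neighbouring genes, and from each pathway list the 4 changed genes of smallest adjusted p and the largest change against the list's majority; of other cell types' markers, those that changed or were at 0. The 3 genes most alike each tested member were named too. Promoters come from RefSeq on GRCh38.p14. Alternatives were a pseudocount of 0.1, no filter or 5 TPM, median-of-ratios scaling, quantile normalization, a replicate block, no trend with robust moderation, each library left out and, added after seeing the data, both replicate 1 libraries left out.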

Additional observations from a re-analysis of the deposited data

How the results depend on the processing

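DCT passed and stayed lower in all 14 other settings (log2 fold change from -4.87 to -3.13), as did AHCYL1 (from -3.54 to -3.38). The other 4 tested members kept their direction in every setting that could fit them. The count of members changed was 5 and became 3 with the filter at 5 TPM, which removes TYRP1 and PMEL. It was also 3 under quantile normalization, where PMEL (adjusted p = 0.0609) and OCA2 (0.111) did not pass by limma. In each of these settings 1 member was higher. Leaving out single libraries gave counts from 2 to 5, with 1 to 3 members higher and 1 to 2 lower, and the count of 2 arose without siNC replicate 2. Over all genes 6844 changed, with 5685 to 7919 in the other settings. The difference of the summed member TPM (siAHCYL1 minus siNC) was -6.02 and was recomputed only with single libraries left out, which gave -8.20 to -3.22, the last without siAHCYL1 replicate 3. Same-numbered libraries deviated together with correlations of 0.233, 0.00092 and 0.154, and 4 of 6 libraries correlated best with their own number. These values do not settle whether the numbers mark pairs, and the main test left them out. With the replicate block 7919 genes changed and all 5 tested members passed. Over the named genes and members, 26 of 529 refits lost a call and 0 reversed one. Many of these genes were named for a small adjusted p in the same test, and some, such as MITF and SOX10, had no call to lose. Among the members, PMEL lost its call in 9 of 13 settings, OCA2 in 4 of 14, MC1R in 2 of 14 and TYRP1 in 1 of 13. Depth is unknown, so the limit it sets on genes under 1 TPM could not be given.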
